A study of Mus musculus with 18 samples.

Results

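The genes described here encode enzymes that make and use ketone bodies, and the carriers that move them across membranes. They are Bdh1, Bdh2, Oxct1, Acat1, Aacs, Slc16a1, Slc16a7 and Slc16a6, 8 of the 22609 gene symbols that every count file lists, and each was found by its symbol in all 18 libraries. Ketone bodies are acetoacetate and beta-hydroxybutyrate, water-soluble fuels that liver mitochondria make from acetyl-CoA when fat is plentiful and carbohydrate scarce. Heart, kidney, muscle and brain take them up and turn them back into acetyl-CoA for oxidation. The liver makes ketone bodies for export and is known to have very little of the transferase Oxct1 that a cell needs to burn them.

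The libraries came from wild-type C57BL/6J mice, an inbred strain, which at 4 weeks of age were put on standard chow or on a ketogenic diet for 21 days. The ketogenic diet held 0.3% carbohydrate, 9.7% protein and 90% fat. Heart, kidney and liver were each sampled on both diets, with 3 libraries per group that the labels call biological replicates, and no genetic change or drug was involved. All groups are organ samples of young, growing mice, and the sample titles name the organ but no part of it. Every value is an average over the cell types in the tissue sampled. Fewer cells of a type and less RNA per cell cannot be told apart. The series set the ketogenic diet against chow organ by organ, and liver as the site of ketone body synthesis is placed here beside heart and kidney as sites of use.

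Library totals ran from 16135276 to 23835383 estimated counts, of which the 8 genes together took 0.180 to 0.245% in heart, 0.249 to 0.317% in kidney and 0.0912 to 0.148% in liver. Ketogenic replicates 1 and 2 of heart, and likewise of liver, differed by about as little as counting noise. The chi-square statistic of such a pair, taken per gene, had a median of 0.670 (heart) and 0.675 (liver). Counting noise by itself would put it at 0.455, and for the remaining 16 same-group pairs it lay between 1.25 and 4.36. Each of these pairs was counted as 1 sample in the tests and as 1 value in every mean, so n = 2 for ketogenic heart and ketogenic liver. Markers fitted the organ labels, with summed levels of 97432 to 138814 CPM (counts scaled to a common library size) for 6 cardiomyocyte genes in heart, 12857 to 20620 for 5 proximal tubule genes in kidney and 69249 to 120996 for 6 hepatocyte genes in liver. Chow heart replicate 3 stood apart. It held 12088 CPM of 4 atrial genes and 159 CPM of 6 fat cell genes, where the other 5 heart libraries held 40.8 to 132 and 0.546 to 2.00. Results that this library decides, or that it moves by over 1.5 times, are also given without it.

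Of the 8 genes, 5 had a start site in the RefSeq promoter table (build GRCm38.p6), and the 250 bases before the start are shown for Slc16a1, Bdh2 and Bdh1, the genes among these 5 that passed the diet test in an organ. The windows show how differently composed the regions in front of these genes are, on the plus strand at chr3:104638414-104638663 for Slc16a1, chr3:135280971-135281220 for Bdh2, and chr16:31422047-31422296 and chr16:31428503-31428752 for starts 1 and 2 of Bdh1. Capitals mark matches to the motifs searched.
Slc16a1: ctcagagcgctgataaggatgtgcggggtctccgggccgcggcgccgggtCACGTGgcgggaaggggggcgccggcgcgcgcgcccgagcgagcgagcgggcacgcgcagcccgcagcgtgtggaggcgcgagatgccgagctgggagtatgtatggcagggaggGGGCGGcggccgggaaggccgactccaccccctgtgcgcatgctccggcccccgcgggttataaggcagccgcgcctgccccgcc
Bdh2: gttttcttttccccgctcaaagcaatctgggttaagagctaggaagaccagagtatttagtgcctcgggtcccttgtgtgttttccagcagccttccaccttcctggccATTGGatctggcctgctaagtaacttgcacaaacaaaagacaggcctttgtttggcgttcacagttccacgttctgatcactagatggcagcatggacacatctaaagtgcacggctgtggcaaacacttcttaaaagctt
Bdh1 start 1: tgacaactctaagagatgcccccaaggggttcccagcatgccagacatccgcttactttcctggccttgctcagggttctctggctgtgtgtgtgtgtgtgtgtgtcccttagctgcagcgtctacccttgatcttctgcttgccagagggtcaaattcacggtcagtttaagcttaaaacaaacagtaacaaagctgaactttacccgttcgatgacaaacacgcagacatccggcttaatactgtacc
Bdh1 start 2: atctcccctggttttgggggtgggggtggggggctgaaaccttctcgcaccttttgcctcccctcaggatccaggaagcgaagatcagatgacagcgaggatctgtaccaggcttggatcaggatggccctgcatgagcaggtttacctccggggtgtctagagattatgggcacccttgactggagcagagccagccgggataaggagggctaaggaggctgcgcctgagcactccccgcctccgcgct
The Slc16a1 window was 76.4% G and C with 37 CpG pairs, against a median of 52.4% and 6 over 32817 windows of the same length. The Bdh2 window was 48.0% G and C with 5 CpG pairs, and those of Bdh1 were 49.6% with 7 and 60.8% with 9. On both strands 4 motifs were searched, namely the direct repeat AGGTCANAGGTCA, the E-box CACGTG, the GC box CCGCCC and the CCAAT box CCAAT. They occurred in 0.0335, 6.02, 32.7 and 33.8% of all windows, and none of these 4 motifs contains another. The Slc16a1 window held CACGTG with its first base at -200 and the GC box on the other strand at -85, counted from the start. The Bdh2 window held the CCAAT box on the other strand at -141. The direct repeat, the form bound by PPAR receptors with their partner RXR, was in none of the 6 windows of the 5 genes. These matches describe the letters of the windows and say nothing of binding.

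On chow, more of these genes passed the test between organs than between the diets within an organ. Acat1 went the other way in the reported fits, passing between the diets in heart and liver but between no pair of organs. Levels are given here as reads per kilobase of gene length at a common library size (RPKM, scaled over all libraries), so that genes and organs can be set side by side. Oxct1, the succinyl-CoA transferase that commits acetoacetate to oxidation (chromosome 15, 3976428 to 4105344, plus strand, mm9), stood at 349.8 ± 74.0 RPKM in heart and 318 ± 10.01 in kidney but at 1.88 ± 0.144 in liver (SD, n = 3 each). Heart exceeded liver by 7.55 and kidney exceeded liver by 7.41 on the log2 scale (SE 0.22 in each, adjusted p = 6.06e-14 and 1.75e-13, edgeR's quasi-likelihood test), which is about 187-fold and 170.1-fold. Heart and kidney did not differ beyond their spread (adjusted p = 0.457). Bdh1, the mitochondrial dehydrogenase that interconverts acetoacetate and beta-hydroxybutyrate (chromosome 16, 31422383 to 31458987, plus strand), ran the other way, from 139 ± 13.2 RPKM in liver through 44.2 ± 1.38 in kidney to 6.62 ± 2.87 in heart. All 3 steps of that order passed the test. The ratio of Bdh1 to Oxct1 within a library was therefore 73.9 ± 5.22 in liver, 0.139 ± 0.00813 in kidney and 0.0185 ± 0.00619 in heart on chow.

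Bdh2, a cytosolic dehydrogenase related to Bdh1 (chromosome 3, 134944185 to 134967389, plus strand), was a kidney gene in these libraries, with 106 ± 4.99 RPKM in kidney, 8.06 ± 0.455 in liver and 1.04 ± 0.643 in heart. The heart value leaned on chow replicate 3, with 1.77 RPKM beside 0.548 and 0.796. Each organ differed from the others, and the distance between kidney and heart was the widest (heart minus kidney -6.59 on the log2 scale, SE 0.23, adjusted p = 1.83e-12, and -7.29 without chow heart replicate 3). Acat1, the mitochondrial thiolase that joins acetyl-CoA into acetoacetyl-CoA in liver and splits it in organs that burn ketone bodies (chromosome 9, 53388627 to 53418455, minus strand), was the most even of the abundant members. Its chow levels were 143 ± 6.58 RPKM in kidney, 139 ± 14.8 in liver and 123 ± 10.1 in heart, and no pair of organs passed the test (adjusted p = 0.123 to 0.757). This depended on the scaling, since under total-count scaling all 3 pairs passed. Kidney then stood above liver (log2 1.00, adjusted p = 1.57e-07) and above heart (heart minus kidney -0.60, adjusted p = 5.16e-05), and heart minus liver turned from -0.18 to 0.40 (adjusted p = 0.00182). Aacs, the cytosolic synthetase that turns acetoacetate into acetoacetyl-CoA for lipid synthesis (chromosome 5, 125956243 to 125997773, plus strand), stood at 54.4 ± 20.2 RPKM in liver, 29.4 ± 6.10 in kidney and 3.40 ± 2.27 in heart, where chow replicate 3 held 6.03 and the others 2.16 and 2.02. Heart minus liver was -3.96 with that library and -4.70 without it, and heart minus kidney -3.08 and -3.81. Its difference between kidney and liver passed narrowly (log2 -0.88, SE 0.35, adjusted p = 0.0384), and scaling by total count gave 0.082. The call was also lost without a filter on low counts and without heart ketogenic replicate 3, kidney chow replicates 2 and 3 or liver chow replicate 1 (adjusted p = 0.0502 to 0.189).

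The carriers divided the organs between them. Slc16a1, the monocarboxylate carrier MCT1 (chromosome 3, 104442591 to 104462385, plus strand), was highest in heart at 75.4 RPKM, followed by liver at 29.8 and kidney at 11.8. Slc16a7, the higher-affinity carrier MCT2 (chromosome 10, 124664541 to 124765591, minus strand), had the order kidney, liver, heart, with 60.6, 32.6 and 3.98 RPKM. All pairs of organs passed the test for both genes, although Slc16a1 lost kidney against liver under total-count scaling (adjusted p = 0.0769). The ratio of Slc16a1 to Slc16a7 within a library was 19.97 ± 7.21 in chow heart, 0.931 ± 0.214 in chow liver and 0.195 ± 0.0285 in chow kidney. Slc16a6, a carrier known in zebrafish liver for the export of beta-hydroxybutyrate (chromosome 11, 109312170 to 109334910, minus strand), was low in every organ, at 2.38 RPKM in liver, 1.99 in heart and 1.85 in kidney. No pair of organs passed the test for Slc16a6 (adjusted p = 0.387 to 0.819).

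**Figure D1:**
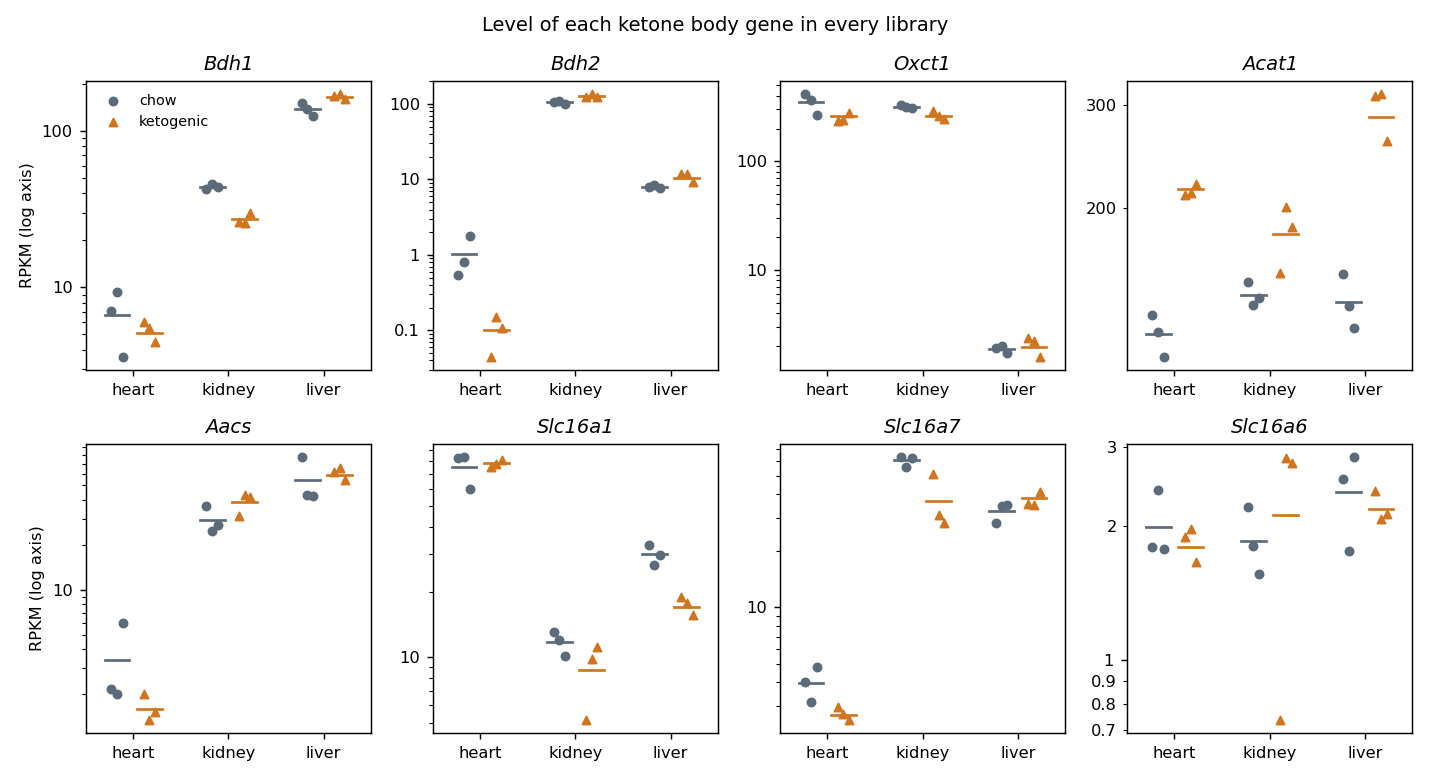
Level of each gene in RPKM (log axis) in every library of heart, kidney and liver, with chow as circles, ketogenic diet as triangles and a line at each group mean (a near-identical pair averaged first). Oxct1 is near 349.8 and 318 RPKM in chow heart and kidney and near 1.88 in liver, while Bdh1 is highest in liver and Bdh2 in kidney.

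In the chow comparisons 5 of the 8 genes passed between heart and kidney (1 higher and 4 lower in heart), 6 between heart and liver (2 higher and 4 lower in heart) and 6 between kidney and liver (3 higher and 3 lower in kidney). Of all 15695 genes tested, 72.5% passed between heart and kidney (34.7% higher and 37.8% lower in heart), 77.2% between heart and liver (40.2 and 37%) and 75% between kidney and liver (41 and 34%), so the share among the ketone body genes was near that of genes at large.

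Between the diets fewer members moved. In heart 1 rose and 1 fell, in kidney 1 fell, and in liver 1 rose and 1 fell, at an adjusted p under 0.05 over all genes tested in the organ. The background was 12.1% of 13609 genes in heart (6.25% higher, 5.81% lower), 9.05% of 14526 in kidney (3.59% higher, 5.45% lower) and 36.8% of 13220 in liver (19.2% higher, 17.6% lower), so 2, 1 and 2 of 8 are near what genes at large gave. The median log2 fold change of the 8 genes was -0.40 in heart, -0.06 in kidney and 0.20 in liver, beside -0.03, 0.00 and 0.01 for all genes tested. Counting genes whose 3 ketogenic and 3 chow libraries did not overlap gave 4 members in heart (1 above chow, 3 below), 5 in kidney (2 above, 3 below) and 5 in liver (4 above, 1 below), where 44.4% of all genes did so in heart (21.7% above, 22.7% below), 31.4% in kidney (15 and 16.4%) and 56.7% in liver (28.8 and 27.9%). In heart and liver the near-identical ketogenic pair enters every statement of overlap, here and below, as 2 of the 3 libraries though it is 1 sample. Fold changes below are ketogenic against chow on the log2 scale, and levels are CPM scaled within the organ.

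**Figure D2:**
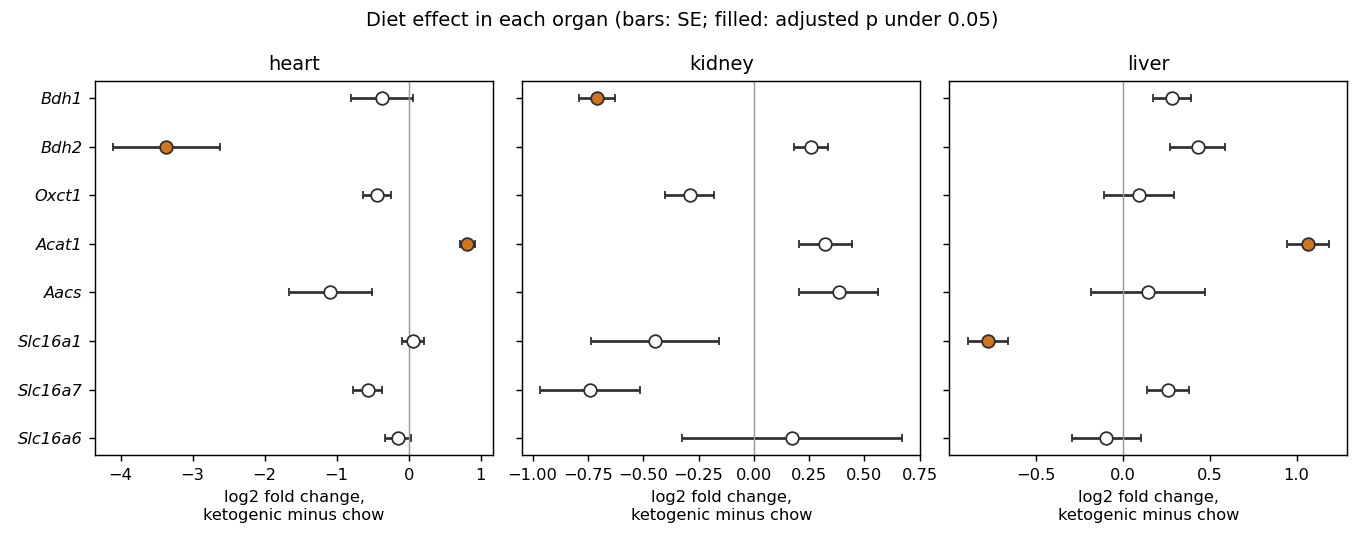
Log2 fold change of each gene, ketogenic against chow, in heart, kidney and liver, with bars for the SE and filled points for an adjusted p under 0.05; the horizontal ranges differ between panels. Acat1 lies to the right in heart (0.81) and liver (1.07), Bdh1 to the left in kidney (-0.71), Slc16a1 to the left in liver (-0.78) and Bdh2 far to the left in heart (-3.36).

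Acat1 was the gene with the clearest rise. In liver it measured 377, 333.3 and 306 CPM in the 3 chow libraries and 768, 772 and 647 in the 3 ketogenic libraries. All ketogenic livers lay above all chow livers, and the rise was 2.095-fold (log2 1.07, SE 0.12, adjusted p = 7.57e-05). In heart it measured 455, 426 and 388 CPM on chow and 723, 730 and 758 on the ketogenic diet, again without overlap. That rise was 1.76-fold (log2 0.81, SE 0.11, adjusted p = 0.00643), and without ketogenic replicate 3, which leaves 1 ketogenic sample assumed to vary like the chow samples, the log2 value was 0.79 with an adjusted p of 0.108. In kidney the values were 689, 618 and 649 CPM on chow and 703, 909 and 835 on the ketogenic diet, so the groups did not overlap but ketogenic replicate 1 lay just above the highest chow library. The kidney difference did not pass (log2 0.32, SE 0.12, adjusted p = 0.122). Acat1 thus passed in the organ that makes ketone bodies and in 1 of the 2 that burn them. The diet effect of Acat1 did not differ between heart and kidney by the test of the difference (heart minus kidney 0.50, SE 0.19, adjusted p = 0.176).

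Oxct1 stood lower on the ketogenic diet in the organs that burn ketone bodies, without passing the test in either. Heart measured 1474, 1302 and 962 CPM on chow and 824, 858 and 993 on the ketogenic diet. The groups overlapped only through chow replicate 3, the library with atrial and fat cell transcripts, whose value of 962 lay below the ketogenic 993. With all libraries the log2 fold change was -0.44 (SE 0.19, adjusted p = 0.174), and without chow replicate 3 it was -0.60 with an adjusted p of 0.000269. Kidney measured 1565, 1455 and 1483 CPM on chow and 1348, 1204 and 1130 on the ketogenic diet, with no overlap, and a log2 fold change of -0.29 (SE 0.11, adjusted p = 0.136). In liver Oxct1 stayed at a few CPM, 4.33 to 5.03 on chow and 4.04 to 6.03 on the ketogenic diet, and the groups overlapped (log2 0.09, SE 0.20, adjusted p = 0.748). On the RPKM scale over all libraries, the ketogenic levels were 1.93 ± 0.510 in liver (n = 2), 258 ± 29.8 in heart (n = 2) and 264 ± 23.3 in kidney (n = 3).

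Within a library the ratio of Oxct1 to Acat1 does not depend on how libraries are scaled. In heart this ratio of RPKM values ran from 2.40 to 3.14 on chow and from 1.10 to 1.27 on the ketogenic diet. In kidney it ran from 2.20 to 2.28 on chow and from 1.28 to 1.86 on the ketogenic diet. Liver held far less Oxct1 than Acat1 and gave 0.0124 to 0.0146 on chow and 0.00605 to 0.00761 on the ketogenic diet. In each organ the groups did not overlap and the ketogenic ratios were the lower ones, and this ratio was not tested. It covers chow heart replicate 3 as well, whose ratio of 2.40 was the lowest of the chow hearts. In kidney the separation restates the single genes, since all ketogenic kidneys lay below chow for Oxct1 and above it for Acat1. In liver Oxct1 overlapped between the diets, so the lower ratio there is the rise of Acat1 given above.

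Bdh1 moved in kidney. It measured 195, 204 and 200 CPM in the chow kidneys and 118, 115 and 133 in the ketogenic kidneys. The groups were well apart, and Bdh1 fell by 38.9% (log2 -0.71, SE 0.08, adjusted p = 0.00212). In a fit of all 18 libraries, with one spread for the 3 organs, the same difference was -0.69 with an adjusted p of 0.0784. In liver, where Bdh1 carries out the last step of beta-hydroxybutyrate synthesis, the values were 366, 333.2 and 303 CPM on chow and 413, 422 and 395 on the ketogenic diet. These groups did not overlap either, but the difference did not pass (log2 0.28, SE 0.11, adjusted p = 0.0608); with the near-identical livers as separate samples the adjusted p was 0.0154. Heart held 23.9, 31.6 and 12.2 CPM on chow and 20.3, 18.6 and 15.1 on the ketogenic diet. The lowest of these 6 values was again chow replicate 3, the groups overlapped, and the log2 fold change was -0.37 (SE 0.43, adjusted p = 0.614). Without that library it was -0.65 with an adjusted p of 0.01002.

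Bdh2 fell in heart, where it is close to the limit of detection. The 3 chow hearts held 12, 17 and 52 counts (0.655, 0.953 and 2.12 CPM) and the 3 ketogenic hearts 1, 3 and 2 counts (0.0527, 0.177 and 0.130 CPM). The groups did not overlap, with the highest value in chow replicate 3. The log2 fold change was -3.36 (SE 0.74, adjusted p = 0.0303). Pooled over libraries, 81 counts on chow stood against 6 on the ketogenic diet, a ratio of 12.6 after scaling for depth (exact 95% interval for counting error alone 5.53 to 35.2), and 29 against 6, a ratio of 7.42 (3.03 to 21.9), without chow replicate 3. The fitted value without that library was -2.72 with an adjusted p of 0.00533. The call was lost without chow replicate 2 (adjusted p = 0.0750), without ketogenic replicate 3 (0.207) and with limma-voom (0.0572), and a filter on at least 1 CPM in 3 samples left the gene out.

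Bdh2 had the opposite sign in the organs where it is better expressed, without passing there. In kidney it measured 168, 174 and 162 CPM on chow and 196, 212 and 195 on the ketogenic diet, with no overlap (log2 0.26, SE 0.08, adjusted p = 0.0685). In liver it measured 6.67, 7.26 and 6.54 CPM on chow and 10.3, 10.2 and 7.98 on the ketogenic diet, also with no overlap (log2 0.43, SE 0.16, adjusted p = 0.0505, and 0.0131 with the near-identical livers as separate samples). The ratio of Bdh2 to Bdh1 within a kidney library ran from 2.30 to 2.45 on chow and from 4.17 to 5.25 on the ketogenic diet. That separation restates the single genes, since all ketogenic kidneys lay above chow for Bdh2 and below it for Bdh1. The ratio was not tested.

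Aacs did not pass in any organ. In heart, 2 of the chow libraries held 6.99 and 6.56 CPM, close to the 6.48, 4.36 and 4.94 of the ketogenic diet, while chow replicate 3 held 19.6. The ketogenic hearts lay below the chow hearts, and the log2 fold change was -1.09 (SE 0.58, adjusted p = 0.285) with that library and -0.36 (adjusted p = 0.140) without it. Kidney measured 157, 105 and 117 CPM on chow and 132, 185 and 177 on the ketogenic diet, with overlap (log2 0.38, SE 0.18, adjusted p = 0.222). In liver 1 of the chow libraries also stood high, at 178 CPM beside 98.8 and 97.2, against 144, 153 and 127 on the ketogenic diet. The liver groups overlapped (log2 0.14, SE 0.33, adjusted p = 0.774), and without chow replicate 1 the value was 0.50 with an adjusted p of 0.00611.

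Among the carriers, Slc16a1 fell in liver, the organ that exports ketone bodies. It measured 106, 85.6 and 95.2 CPM in the chow livers and 61.4, 57.8 and 51.4 in the ketogenic livers. All ketogenic livers lay below all chow livers, and the gene fell by 41.6% (log2 -0.78, SE 0.12, adjusted p = 0.000461). In heart, where Slc16a1 is most abundant, the values were 373, 380 and 272 CPM on chow and 341, 349 and 365 on the ketogenic diet. They overlapped (log2 0.06, SE 0.16, adjusted p = 0.833), and the sign turned without chow replicate 3 (-0.08) and under total-count scaling (-0.07). In kidney the chow libraries held 78.8, 71.1 and 61.3 CPM and the ketogenic libraries 30.6, 58.2 and 66.1, which overlapped (log2 -0.45, SE 0.29, adjusted p = 0.381). Ketogenic replicate 1 was the low one, and without it the value was -0.18.

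Slc16a7 gave its lowest adjusted p in kidney, where it is most abundant. The chow kidneys held 208, 181 and 207 CPM and the ketogenic kidneys 165, 101 and 90.5. The groups did not overlap, but the ketogenic libraries were spread widely and the difference did not pass (log2 -0.74, SE 0.23, adjusted p = 0.0938). Without ketogenic replicate 1, the highest of the 3, the value was -1.05 with an adjusted p of 1.38e-05, and in the fit of all 18 libraries it was -0.72 (adjusted p = 0.0322). In heart Slc16a7 measured 9.89, 7.74 and 11.9 CPM on chow and 7.27, 6.66 and 6.25 on the ketogenic diet, with no overlap (log2 -0.57, SE 0.21, adjusted p = 0.114). Liver had the other sign, with 49.2, 60.9 and 61.2 CPM on chow and 63.2, 62.3 and 73.9 on the ketogenic diet, and again no overlap (log2 0.26, SE 0.12, adjusted p = 0.118). The ratio of Slc16a1 to Slc16a7 within a liver library ran from 0.769 to 1.17 on chow and from 0.381 to 0.531 on the ketogenic diet. This ratio was not tested, and its separation restates the single genes, which lay apart in opposite directions in liver.

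Slc16a6 showed no difference that passed, and its sign in heart, kidney and liver turned when single libraries were left out. In liver it measured 8.30, 5.70 and 9.29 CPM on chow and 7.93, 6.84 and 7.06 on the ketogenic diet (log2 -0.10, SE 0.20, adjusted p = 0.739). In heart it measured 8.25, 11.05 and 8.21 CPM on chow and 8.64, 9.02 and 7.61 on the ketogenic diet (log2 -0.15, SE 0.18, adjusted p = 0.621). Kidney held 13.5, 10.9 and 9.58 CPM on chow, and the ketogenic kidneys enclosed these values with 4.44 in replicate 1 and 17.1 and 16.6 in the others (log2 0.17, SE 0.50, adjusted p = 0.861). Without ketogenic replicate 1 the kidney value was 0.58 with an adjusted p of 0.0136.

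Whether the diet effect itself differed between organs was tested as a contrast of log2 fold changes in 1 fit of the 6 groups, over 15695 genes. The fits share the samples of each organ, so the 3 contrasts are not independent of one another. Heart differed from liver in 1 gene, kidney from liver in 2 and heart from kidney in 1, all of them lower in the organ named first, beside 23.5, 21.8 and 2.5% of all genes in either direction (12.3% higher and 11.2% lower, 11.2 and 10.6%, and 1.41 and 1.08%). Bdh2 had a lower fold change in heart than in liver (heart minus liver -3.82, SE 0.60, adjusted p = 0.000560) and than in kidney (heart minus kidney -3.67, SE 0.58, adjusted p = 0.00484). Without chow heart replicate 3 these differences were -3.14 and -2.99 (adjusted p = 0.000207 and 0.00204). Acat1 gained less in kidney than in liver (kidney minus liver -0.72, SE 0.18, adjusted p = 0.0128), while its gain in heart did not differ from that in liver by the test (heart minus liver -0.21, SE 0.20, adjusted p = 0.478).

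Slc16a7 had a lower fold change in kidney than in liver (kidney minus liver -0.97, SE 0.29, adjusted p = 0.0272). That call was lost in 6 of the fits that left out 1 library, namely chow kidney replicates 1 and 3, ketogenic kidney replicates 2 and 3, chow liver replicate 1 and ketogenic liver replicate 3, with adjusted p-values of 0.0536 to 0.0889. Bdh1, which passed in kidney alone, had a difference of the same size between kidney and liver that did not pass (-0.97, SE 0.34, adjusted p = 0.0542). That difference, -0.94 to -1.11 over the alternatives where its call changed, did pass with DESeq2 (adjusted p = 0.0222), limma-voom (0.0375), total-count scaling (0.0231), all libraries separate (0.0217), the replicate block (0.0195) and without chow heart replicate 2 (0.0187) or 3 (0.00102). Heart minus liver for Bdh1 was -0.61 (SE 0.37, adjusted p = 0.260), and without chow heart replicate 3 it passed at -0.94 (adjusted p = 0.00360). Slc16a1, which passed in liver alone, gave 0.88 for heart minus liver (SE 0.35, adjusted p = 0.0855), which passed with DESeq2 (0.0328), all libraries separate (0.0395), the replicate block (0.0402) and without ketogenic kidney replicate 1 (0.0101). It gave 0.36 for kidney minus liver (SE 0.33, adjusted p = 0.499), and 0.62 (adjusted p = 0.0479) without ketogenic kidney replicate 1. Oxct1 gave -0.50 for heart minus liver (SE 0.27, adjusted p = 0.210), which passed without chow heart replicate 3 (-0.69, adjusted p = 0.0411), and -0.36 for kidney minus liver (SE 0.26, adjusted p = 0.363). Heart minus liver for Slc16a7 was -0.78 (SE 0.33, adjusted p = 0.106), and -0.81 (adjusted p = 0.0126) without ketogenic kidney replicate 1.

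**Figure D3:**
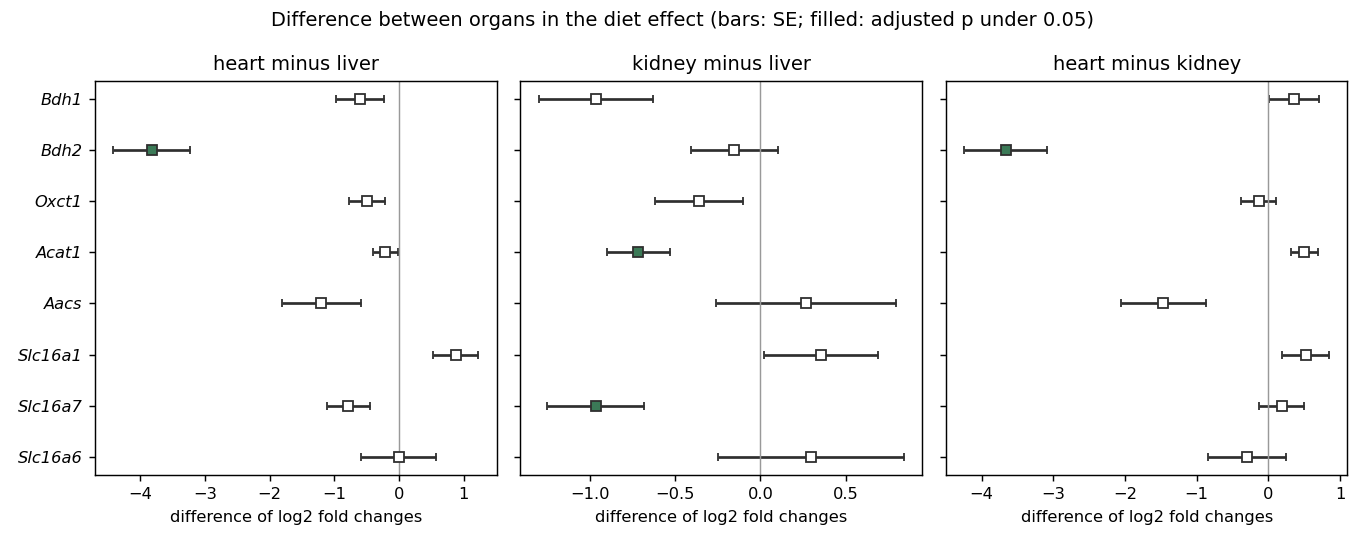
Difference between organs in the log2 fold change of diet for each gene, as heart minus liver, kidney minus liver and heart minus kidney, with bars for the SE and filled points for an adjusted p under 0.05; the horizontal ranges differ between panels. Bdh2 lies at -3.82 and -3.67 in the contrasts with heart, and Acat1 (-0.72) and Slc16a7 (-0.97) are the filled points of kidney minus liver.

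Several kidney and heart values rested on 1 library. Without ketogenic kidney replicate 1, 6 of the 8 genes passed in kidney instead of 1, namely Acat1 (0.42, adjusted p = 0.00676), Bdh1 (-0.68, 0.000176), Bdh2 (0.28, 0.0255), Oxct1 (-0.36, 0.0177), Slc16a6 (0.58, 0.0136) and Slc16a7 (-1.05, 1.38e-05). With all 6 kidneys DESeq2 called 5, adding Acat1 (adjusted p = 0.0265), Bdh2 (0.0164), Oxct1 (0.0207) and Slc16a7 (0.00319) to Bdh1. More genes at large passed as well. Of 14526 genes in kidney DESeq2 called 866 higher and 1020 lower, against 522 and 792 in the reported fit. Leaving out 1 library gave at most 3402 calls in kidney and 3742 in heart, against 1314 and 1642 with all libraries. Whether the 8 genes gained more calls than genes at large was not tested. Ketogenic kidney replicate 1 held 14896 CPM of the 5 proximal tubule markers and 6971 of 4 distal tubule markers, where the other 2 ketogenic kidneys held 19463 and 20620 of the first and 4725 and 4425 of the second. Single markers differed from these sums. The proximal marker Slc5a2 held 451, 438 and 518 CPM in the ketogenic kidneys against 610, 738 and 602 on chow. It was the 1 of 5 that passed, as lower. The distal marker Slc12a3 held 952, 863 and 1046 CPM in the ketogenic kidneys. The chow kidneys held 12857 to 15938 and 6223 to 7421, and fat cell markers ran from 5.08 to 84.8 CPM in chow and from 19.7 to 278 in ketogenic kidneys. Without chow heart replicate 3, 4 genes passed in heart instead of 2, with Oxct1 and Bdh1 joining Acat1 (0.75, adjusted p = 2.28e-06) and Bdh2. The part of this mixture of tissue in the values of the 8 genes was not tested.

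**Figure D4:**
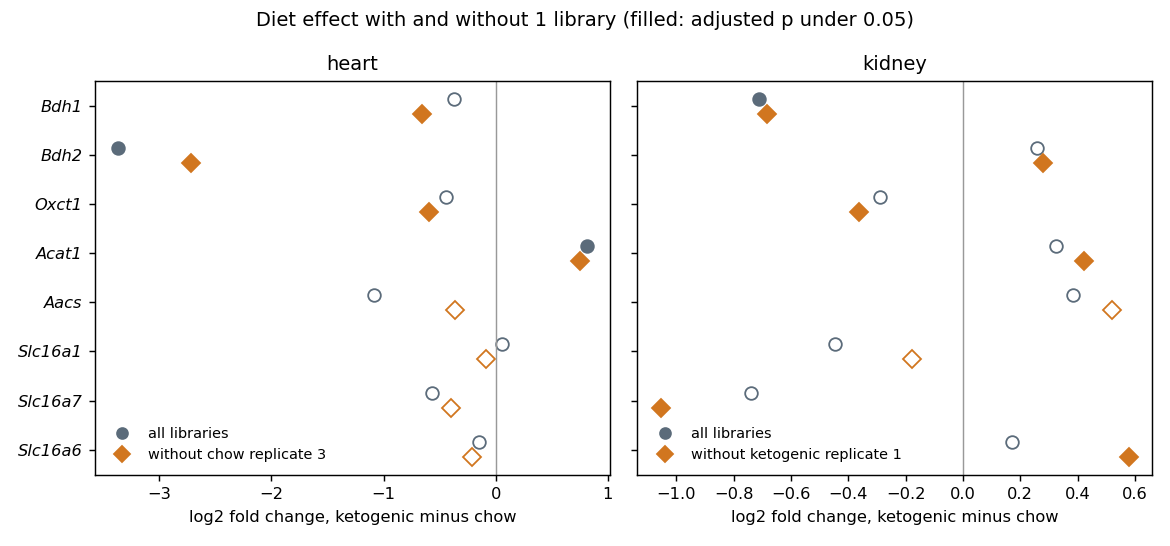
Log2 fold change of diet for each gene with all libraries and with 1 library left out, chow replicate 3 in heart and ketogenic replicate 1 in kidney; filled points have an adjusted p under 0.05. Without the library, Oxct1 in heart moves from -0.44 to -0.60 and Slc16a7 in kidney from -0.74 to -1.05, and the number of filled genes goes from 2 to 4 in heart and from 1 to 6 in kidney. Over all genes, 1642 passed in heart and 1314 in kidney with all libraries, and at most 3742 and 3402 with 1 library left out.

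Levels of cell type markers also differed between the diets. In heart, 4 of 5 macrophage markers were lower on the ketogenic diet (summed level 217 to 224 CPM against 372 to 413), and erythroid markers summed to 570 to 1323 CPM against 2329 to 3344 with none of 5 passing. In liver, 4 of 6 hepatocyte markers were lower, with a summed level of 69249 to 74503 CPM on the ketogenic diet and 111971 to 120996 on chow, while 2 of the 6 fat cell genes could be tested and both were higher. These were Cidec (25.7 to 31.0 CPM against 0.419 to 0.680) and Cfd (56.3 to 116 against 0.0451 to 0.0839). The defining fat cell genes were at or near 0 in the ketogenic livers, with Adipoq at most 0.105 CPM, Plin1 at most 0.0499, and Retn and Lep at 0. Acat1 in liver had the other direction from the summed hepatocyte markers and Slc16a1 the same one. Most of that sum was Alb, and single markers differed from it. Apoa1 held 7547 to 9180 CPM on the ketogenic diet against 7562 to 7894 on chow, and Tat 599 to 1081 against 830 to 1070. The part of these shifts in the values of the 8 genes was not tested.

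Further carriers of the same family and their chaperones were examined next. Of 15 such genes in the files, 10 could be tested in heart, 14 in kidney and 9 in liver, and 0, 0 and 2 rose and 1, 1 and 1 fell, beside 12.1, 9.05 and 36.8% of all genes that passed in these organs. Slc16a3, the lactate-exporting carrier MCT4, fell in heart (log2 -1.46, adjusted p = 0.0373) from 2.89, 3.25 and 3.84 CPM on chow to 1.47, 1.59 and 0.781. Slc16a5 fell in kidney (log2 -0.54, adjusted p = 0.0115) from 33.9 ± 2.89 to 23.3 ± 2.02 CPM (n = 3 each). In liver, Slc16a13 rose by 1.43 (adjusted p = 0.00249) from a low level of 1.55 ± 0.522 CPM and Slc16a12 by 0.33 (adjusted p = 0.0326). Bsg, the chaperone basigin that brings Slc16a1 to the cell surface, fell in liver together with Slc16a1. It measured 351, 322 and 313 CPM in the chow livers and 257, 263 and 252 in the ketogenic livers, with no overlap (log2 -0.36, adjusted p = 0.0167). In heart it measured 1000, 1031 and 855 CPM on chow and 1184, 1179 and 1184 on the ketogenic diet, a difference that did not pass (log2 0.30, adjusted p = 0.138), and heart minus liver was 0.70 (adjusted p = 0.00438).

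Of 7 receptors and regulators of ketone body metabolism in the files, 2 could be tested in heart, 3 in kidney and 5 in liver. Ppara, the fatty acid receptor that drives genes of fasting metabolism, rose in heart (log2 0.38, adjusted p = 0.0412) and in liver (log2 0.61, adjusted p = 0.00270). Its fold change was largest in kidney, without passing (log2 0.77, adjusted p = 0.0812). The kidneys held 109, 121 and 117 CPM on chow and 130, 214 and 248 on the ketogenic diet. No difference between organs in its diet effect passed (adjusted p = 0.517 to 0.682). Sirt3, a mitochondrial deacetylase, rose in liver from 45.4 ± 2.52 to 80.4 ± 2.94 CPM (log2 0.83, adjusted p = 7.76e-05) and in kidney from 56.9 ± 2.11 to 75.0 ± 7.71 CPM (log2 0.40, adjusted p = 0.0275). Foxa2, a liver transcription factor, fell in liver from 24.97 ± 2.63 to 17.8 ± 0.393 CPM (log2 -0.48, adjusted p = 0.00816). These 7 genes and the 15 carriers were chosen with earlier results of these data known.

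Across the 16 samples of the 6 groups, the genes whose log2 CPM followed each member most closely were largely set by the organs. Ldhb and Prdm16 ran with Oxct1 (Pearson's r of 0.996 each), Tfpi2 and Nr1i2 with Bdh1 (0.988 and 0.985), Cox8a and Snx7 with Bdh2 (0.989 and 0.987), and Iyd and Pcx with Aacs (0.993 and 0.992). Cdc37 and Tuba4a ran with Slc16a1 (0.976 and 0.975), and Lyplal1 and another carrier, Slc16a12, with Slc16a7 (0.989 and 0.983). Acat1, which was even over the organs, had its closest genes at 0.902 (Pet112l) and 0.901 (Rmnd1), and both of these rose in heart and in liver as Acat1 did. Both were picked for following Acat1 over these same samples, so their rise is no separate evidence of a shared response. Slc16a6 had no close companion, with 0.605 for Lrwd1 and 0.572 for Wdfy4. The search covered 10255 genes, and since samples of 1 organ share its tissue, these coefficients, apart from those of Acat1 and Slc16a6, describe mainly 3 organs.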

How the data were processed

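Messenger RNA was sequenced from stranded libraries made from total RNA with a stated integrity number above 4, per the labels' protocols. Reads were aligned and counted with the tools listed in the submitters' processing notes, HISAT2 2.1.0 and featureCounts 1.5.0 among them. Per the file headers, featureCounts summed read pairs over exons of the mouse build mm9, with strandedness set to 2 and mapping quality of at least 2. A read with several matches was split between them. What was deposited is thus an estimated count per gene, not normalized by the authors, and it was rounded to a whole number before testing. The 8 genes had non-whole values in 0 to 11 of the 18 libraries. No exon of theirs overlapped another gene on the same strand. Exons of Oxct1 (BC037032) and Slc16a6 (Arsg, LOC100503496) met genes on the other strand, which the strand setting separates.

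Groups came from the organ and diet in the labels. For each organ, genes were kept by filterByExpr, scaled by TMM and tested with edgeR 4.0.16 (robust quasi-likelihood test, R 4.3.3), with Benjamini-Hochberg adjustment over all genes tested and a threshold of 0.05. Organ contrasts came from 1 fit of 6 groups (16 samples). SEs are the log2 fold change divided by the square root of F. CPM and RPKM were computed from the counts with TMM, and RPKM with the gene lengths in the files. The near-identical ketogenic libraries (replicates 1 and 2, in heart and in liver) were summed into 1 sample for tests. The labels do not say that same-numbered libraries share an animal. Their deviations from the group means correlated by -0.0703 to 0.135 between diets within an organ and by -0.190 to 0.181 between organs within a diet. All 3 pairs exceeded 0.1 in chow heart and kidney alone (0.181, 0.119 and 0.144), and the replicate block changed no call of the 8 genes in that comparison. The reported fits did not treat the numbers as pairing the libraries in any comparison, and the replicate block was run as an alternative only. P-values measure the spread between these libraries. Steps were tested on simulated counts, where 9.09, 12.6 and 9.89% of calls in heart, kidney and liver were false. These shares exceed the threshold of 0.05, so calls near it within an organ may be less certain than their adjusted p-values state. Of 1.5-fold changes 31.3, 49.3 and 58.2% were recovered, and of 2-fold changes 80.6, 92.5 and 89.6%. For the diet effect of heart minus liver, 1.74% of calls were false, and 14.9% of 1.5-fold changes were recovered.

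All 8 genes are named whether or not they passed. Carriers, receptors and regulators are named where they passed in an organ, up to 4 per group and organ by adjusted p, and so are the 2 genes most correlated with each member (mean log2 CPM of at least 2, predicted genes left out). Bsg in heart and Ppara in kidney were named after their values were seen. Members and lists were chosen with earlier results of these data known. Other genes covered by the rule are not reported here. Alternatives were DESeq2 1.42.0, limma-voom (limma 3.58.1), other scalings and filters, all libraries as separate samples, the replicate number as a block, 1 fit of all organs, and leaving out each library.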

Additional observations from a re-analysis of the deposited data

Results flagged for a closer look

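The response to the diet differed between organs, by a test of the difference itself, in 4 cases. Bdh2 differed between heart and liver by -3.82 and between heart and kidney by -3.67 on the log2 scale, and both differences passed under every alternative run. Heart levels of Bdh2 rested on 6 ketogenic and 81 chow counts. These contrasts use one spread for all organs. In the fit of heart alone the Bdh2 call was lost with limma-voom (adjusted p = 0.0572) and without chow replicate 2 (0.0750). Acat1 differed by -0.72 between kidney and liver, and this also passed under every alternative run, with -0.86 to -0.62 when single libraries were left out. Slc16a7 differed by -0.97 between kidney and liver and lost its call in 6 of the fits that left out a library.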

How the results depend on the processing

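Over 1599 combinations of gene, comparison and alternative, 1513 kept direction and side of the threshold, 41 passed where the reported value had not, 17 lost a call and 28 changed sign. The cause of these changes was not tested. Total-count scaling shifted the median of all genes to -0.17 in heart and -0.09 in kidney (-0.44, 0.63 and 1.08 in chow heart minus kidney, heart minus liver and kidney minus liver), with 464 higher and 1435 lower calls in heart against 851 and 791, and 385 and 1137 in kidney against 522 and 792. In the chow contrasts it gave 3699 and 8118 against 5450 and 5934, 8810 and 3676 against 6312 and 5805, and 11596 and 2006 against 6440 and 5337 in that order, and in the diet contrasts of the same order 172 and 256 against 222 and 170, 971 and 2614 against 1936 and 1757, and 960 and 2141 against 1756 and 1661. Signs changed there for Aacs (chow kidney minus liver 0.082), Acat1 (chow heart minus liver 0.40), Oxct1 (chow heart minus kidney -0.25), Slc16a1 in heart (-0.075) and Slc16a6 on chow (heart minus kidney -0.29, heart minus liver 0.31, kidney minus liver 0.59). With 1 library left out, values that crossed 0 ran from -0.0075 to 0.50 for Aacs in liver, -0.079 to 0.45 for Aacs in kidney minus liver, -0.024 to 0.13 for Acat1 in chow kidney minus liver, -0.0033 to 0.30 and -0.32 to 0.0032 for Oxct1 in chow and diet heart minus kidney, and -0.084 to 0.14 for Slc16a1 in heart. For Slc16a6 they ran from -0.055 to 0.24 in chow heart minus kidney, -0.16 to 0.18 in diet heart minus liver, -0.22 to 0.0069 in heart, -0.098 to 0.58 in kidney and -0.28 to 0.053 in liver. Slc16a6 also changed with limma-voom in kidney (-0.039) and in diet heart minus liver with DESeq2 (0.020), RLE scaling (0.025), separate libraries (0.0054) and no filter (0.0056).

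Genes passing in heart numbered 1642, 3317 with all 6 libraries separate, 2732 with the replicate block and 89 to 3742 with a library left out, lowest without ketogenic replicate 3. In kidney they numbered 1314, 810 with the replicate block and 412 to 3402 with a library left out. In heart minus kidney they numbered 392, 893 with DESeq2, 842 with separate libraries, 709 with the replicate block and 131 to 674 with a library left out. Of the 8 genes, 2 passed in heart, 1 with limma-voom, 1 under the stricter filter and 0 to 4 with a library left out. In kidney 1 passed, 5 with DESeq2 and 1 to 6 with a library left out. Among all genes in kidney, DESeq2 called 866 higher and 1020 lower, against 522 and 792. In liver 2 passed, 4 with separate libraries, 4 with the replicate block (Bdh1 and Bdh2 joining) and 2 to 4 with a library left out. In heart minus liver 1 passed, 2 with DESeq2, separate libraries or the replicate block (Slc16a1 joining) and 1 to 3 with a library left out. In kidney minus liver 2 passed, 3 with DESeq2, limma-voom, total-count scaling, separate libraries or the replicate block (Bdh1 joining) and 1 to 3 with a library left out. Calls among all genes moved under these alternatives too. Liver gave 3146 higher and 3018 lower with separate libraries and 3139 and 3035 with the replicate block, against 2544 and 2325. Heart minus liver gave 2339 and 1826 with DESeq2, against 1936 and 1757. Kidney minus liver gave 2269 and 1718 with DESeq2 and 1771 and 1652 with limma-voom, against 1756 and 1661. The limit of depth was met by Bdh2 in heart alone, at 1 to 52 counts per library. With 2 or 3 samples per group, differences that did not pass are not shown to be absent.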
